A study of Mus musculus with 26 samples.

Results

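Cells take up iron bound to transferrin (*Trf*) through the transferrin receptor (*Tfrc*), and the endosomal reductase *Steap3* prepares it for release into the cytosol. Spare iron is stored in ferritin, a shell built from heavy chains (*Fth1*), which oxidize iron, and light chains (*Ftl1*), and iron that leaves a cell is oxidized by ceruloplasmin (*Cp*) or hephaestin (*Heph*). Metallothioneins (*Mt1*, *Mt2* and *Mt3*) are small cysteine-rich proteins that bind zinc and copper. The RPE, the pigmented epithelium between photoreceptors and choroid, has to keep iron away from light-exposed, oxygen-rich photoreceptors and is known to make transferrin. These 10 genes were chosen by name, with earlier results of these data known, out of 16426 genes in the single-cell count tables. All 10 had a row in both single-cell tables and in both bulk tables of average expression used here.

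The series holds 26 mouse samples. There were 2 scRNAseq libraries of RPE/choroid cells from mice aged 3 months, 1 of the F1 hybrid strain B6129PF1/J and 1 of C57BL/6J, and the tissue in each library was pooled from 1 male and 1 female. Bulk RNAseq of RPE/choroid compared 3 Ihh+/+ mice with 3 mice in which *Ihh*, a Hedgehog ligand, was deleted in endothelial cells (ECs). All 6 of these mice carried a tamoxifen-inducible Cre driven by the EC promoter *Cdh5*, had a C57BL/6J background and an age of 6 months, and received tamoxifen 12 weeks before sacrifice. Deletion mice carried floxed *Ihh* on both alleles (Ihh iΔEC/ΔiEC). Cultured choroidal GLI1+ cells were sorted from Gli1 GFP/+ mice of a line labelled SWR/J (made in that strain and, by the study's methods, outcrossed to BALB/c), expanded in culture, and exposed for 24 h to DMSO or to 100 nM of the Smoothened agonist SAG, with 3 libraries each. By the same methods the cells came from several female mice, were frozen after expansion, and were kept overnight in low serum before exposure. The methods name no separate mice for the 3 libraries of a group. The remaining 12 libraries, of ECs from heart, liver, lung and retina, were not used here.

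The scRNAseq libraries held 3637 cells and 17168578 UMIs (B6129PF1/J) and 3928 cells and 15230413 UMIs (C57BL/6J), with medians of 3881 and 3175 UMIs per cell. The deposited cell types formed 13 clusters, from 16 and 26 melanocytes to 848 and 839 cells of stromal cluster 5. All 6 RPE markers, 6 EC markers, 6 stromal markers and 5 melanocyte markers were highest in clusters of their own name in both libraries, as were 4 of 5 smooth muscle markers, 5 of 6 Schwann cell markers and all 5 hematopoietic markers. The libraries shared 22 cell barcodes, 0.605% of the cells of B6129PF1/J and 0.56% of those of C57BL/6J. With 1 library per strain there is no replicate, so that no test was made. Intervals in parentheses are 95% exact intervals (Poisson for a level, Clopper-Pearson for a share, conditional binomial for a ratio) and cover counting error only. A level is the number of UMIs of a gene per 10,000 UMIs summed over the cells of a cluster. Levels are compared here between clusters for 1 gene at a time, not between genes.

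RPE held the highest level of 6 of the 10 genes in both libraries: *Trf*, *Tfrc*, *Heph*, *Mt1*, *Mt2* and *Mt3*. Among the 9664 genes with at least 100 UMIs in each library, 6.37% were highest in RPE in both. Of the 8 members above that limit (all but *Tfrc* and *Steap3*), 5 were highest in RPE. As the members were chosen with earlier results of these data known, these shares are a description. Both ferritin genes were highest in melanocytes or hematopoietic cells, and *Cp* and *Steap3* were highest in stromal cells.

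**Figure D1:**
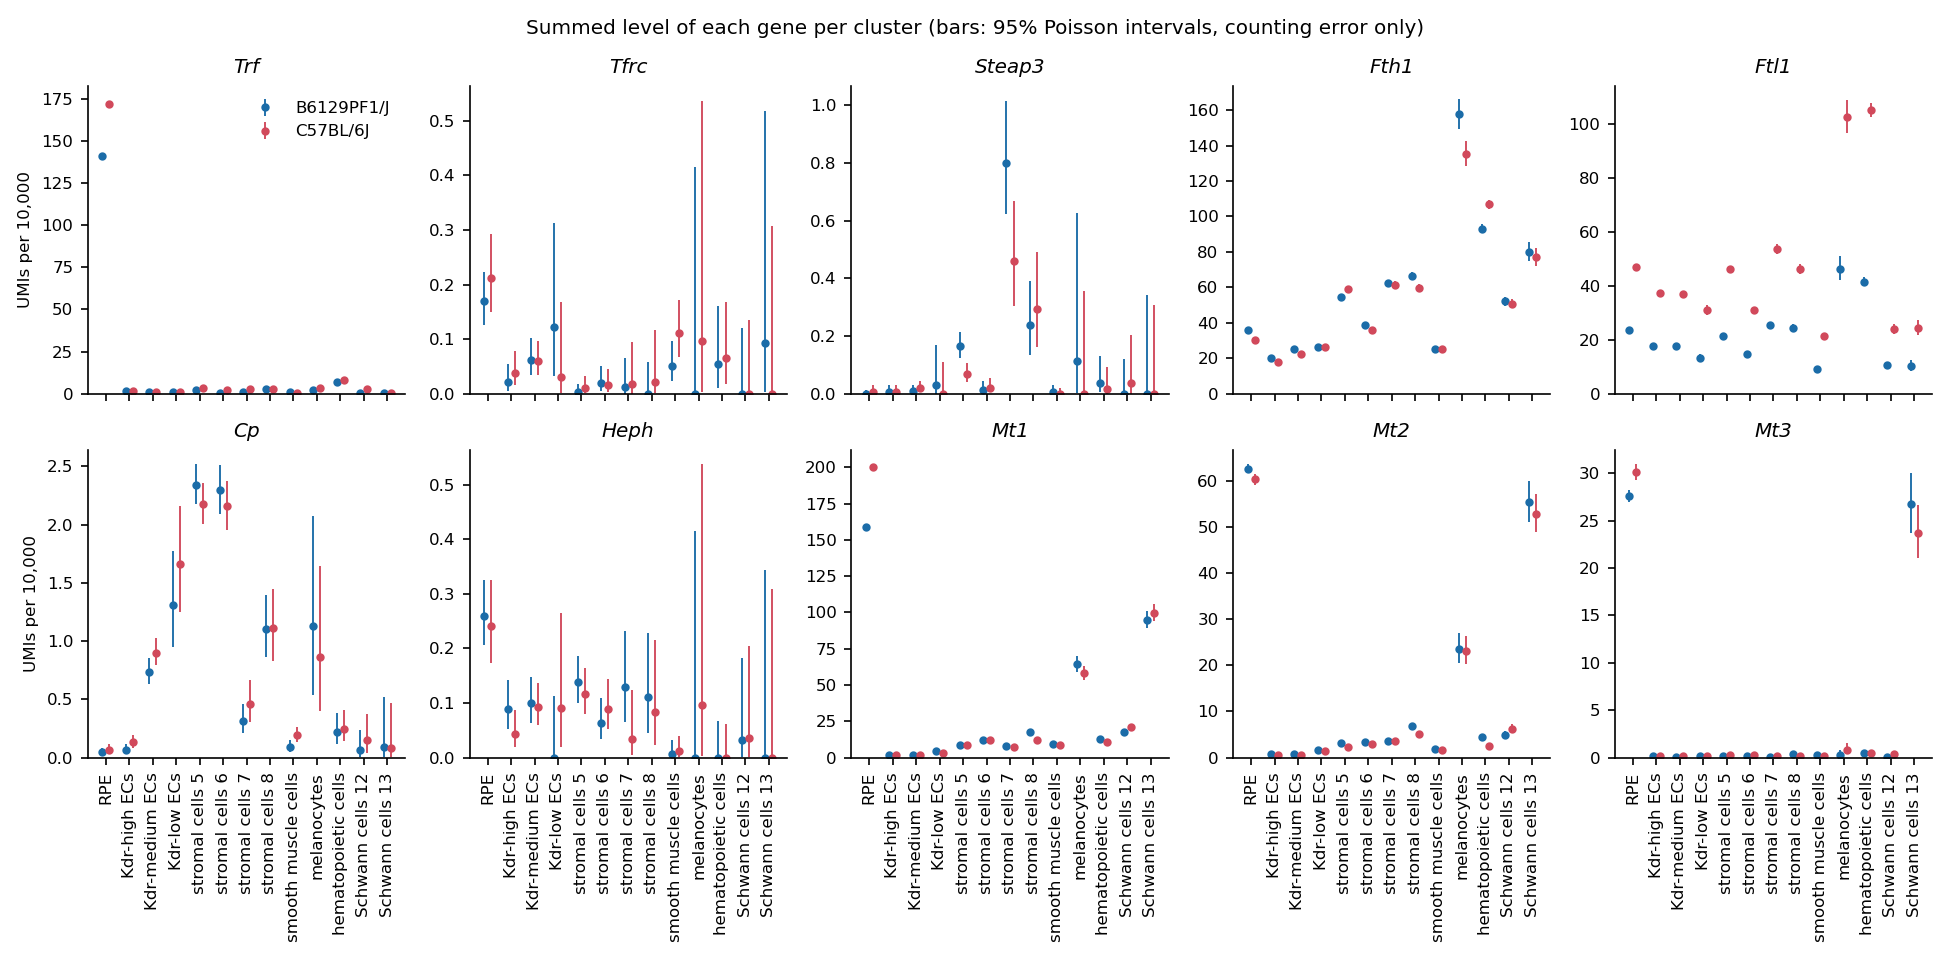
Level of each of the 10 genes (y axis, UMIs per 10,000 UMIs of the cluster) in the 13 clusters (x axis) of the B6129PF1/J library (blue) and the C57BL/6J library (red), with 95% Poisson intervals. *Trf* is high in RPE alone, *Mt3* in RPE and Schwann cell cluster 13, *Fth1* is highest in melanocytes, and *Ftl1* is higher in the C57BL/6J library in every cluster.

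*Trf* encodes the plasma iron carrier transferrin. Its level in RPE was 141 (140 to 143) in B6129PF1/J and 172 (170 to 174) in C57BL/6J, and 99.8% and 99.7% of RPE cells had a *Trf* UMI. The second highest cluster, hematopoietic cells, had 7.16 (6.47 to 7.91) and 8.46 (7.74 to 9.22). RPE thus stood 19.7 and 20.3 times above any other cluster. RPE cells varied among themselves, from 56 at the 10th percentile to 243 at the 90th percentile of cells in B6129PF1/J and from 78.3 to 284 in C57BL/6J. The 3 genes whose profile over the 26 points of 13 clusters in 2 libraries was most like that of *Trf* were *Rpe65* (r = 0.94), *Rgr* (r = 0.93) and *Ttr* (r = 0.92), all RPE genes of the visual cycle or of retinol transport. These points share 2 libraries and the free RNA within each, and the correlations are a description.

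In droplet data, free RNA of an abundant cell type gives UMIs in other cells, so the *Trf* level outside RPE was set beside that of 6 RPE markers (*Rpe65*, *Rlbp1*, *Rgr*, *Rdh5*, *Ttr* and *Lrat*). Summed, these markers stood in the other clusters at 0.332% to 1.25% of their RPE level in B6129PF1/J and at 0.328% to 1.83% in C57BL/6J. *Trf* ranged from 0.278% to 5.07% and from 0.146% to 4.92% of its RPE level. In both libraries the lower bound of *Trf* passed the highest single marker in 5 clusters: *Kdr*-high ECs, stromal clusters 5, 7 and 8, and hematopoietic cells. The marker's own interval was not used for this. It overlapped that of *Trf* in hematopoietic cells (*Lrat*, 2.12 to 5.39) and *Kdr*-high ECs (*Lrat*, 0.316 to 1.14) of C57BL/6J. It also did so in stromal clusters 7 (*Lrat*, 0.148 to 1.39) and 8 (*Rdh5*, 1.18 to 1.89) of B6129PF1/J. In stromal cluster 5 these intervals were apart in both libraries. The lower bound of *Trf* was then taken again without the cells richest in it. It passed the highest marker in 3 clusters (*Kdr*-high ECs, stromal cluster 5 and hematopoietic cells) when cells with at least 20 *Trf* UMIs were left out. Hematopoietic cells stood highest: *Trf* stood there at 5.07% (4.58 to 5.6) and 4.92% (4.5 to 5.37), against 0.991% and 1.83% for the summed markers, and at 3.48% the highest single marker of C57BL/6J was also below *Trf*. In stromal cluster 5, *Trf* stood at 1.78% (1.66 to 1.91) and 1.85% (1.73 to 1.98), against at most 0.79% and 0.854% for any of the 6 markers. Stromal cluster 8 had 1.93% (1.65 to 2.24) and 1.55% (1.29 to 1.84), against at most 1.51% and 0.605%. In *Kdr*-high ECs the gap was small, with *Trf* at 1.09% (0.964 to 1.22) and 0.896% (0.794 to 1.01) and the highest marker at 0.736% and 0.635%. In both Schwann cell clusters of B6129PF1/J and in Schwann cell cluster 13 of C57BL/6J, *Trf* was at or under 0.329% of its RPE level, and no higher than the summed markers. At a depth of 1700 UMIs per cell, 50.9% and 48% of hematopoietic cells, 24.6% and 35.2% of cells of stromal cluster 5, and 6.67% and 4.35% of cells of Schwann cell cluster 13 kept a *Trf* UMI. The unthinned shares were 75.5% and 70.9%, 43% and 50.7%, and 13.3% and 6.52%, at median depths of 5048 and 3977, 3517 and 3037, and 2848 and 2162 UMIs per cell.

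**Figure D2:**
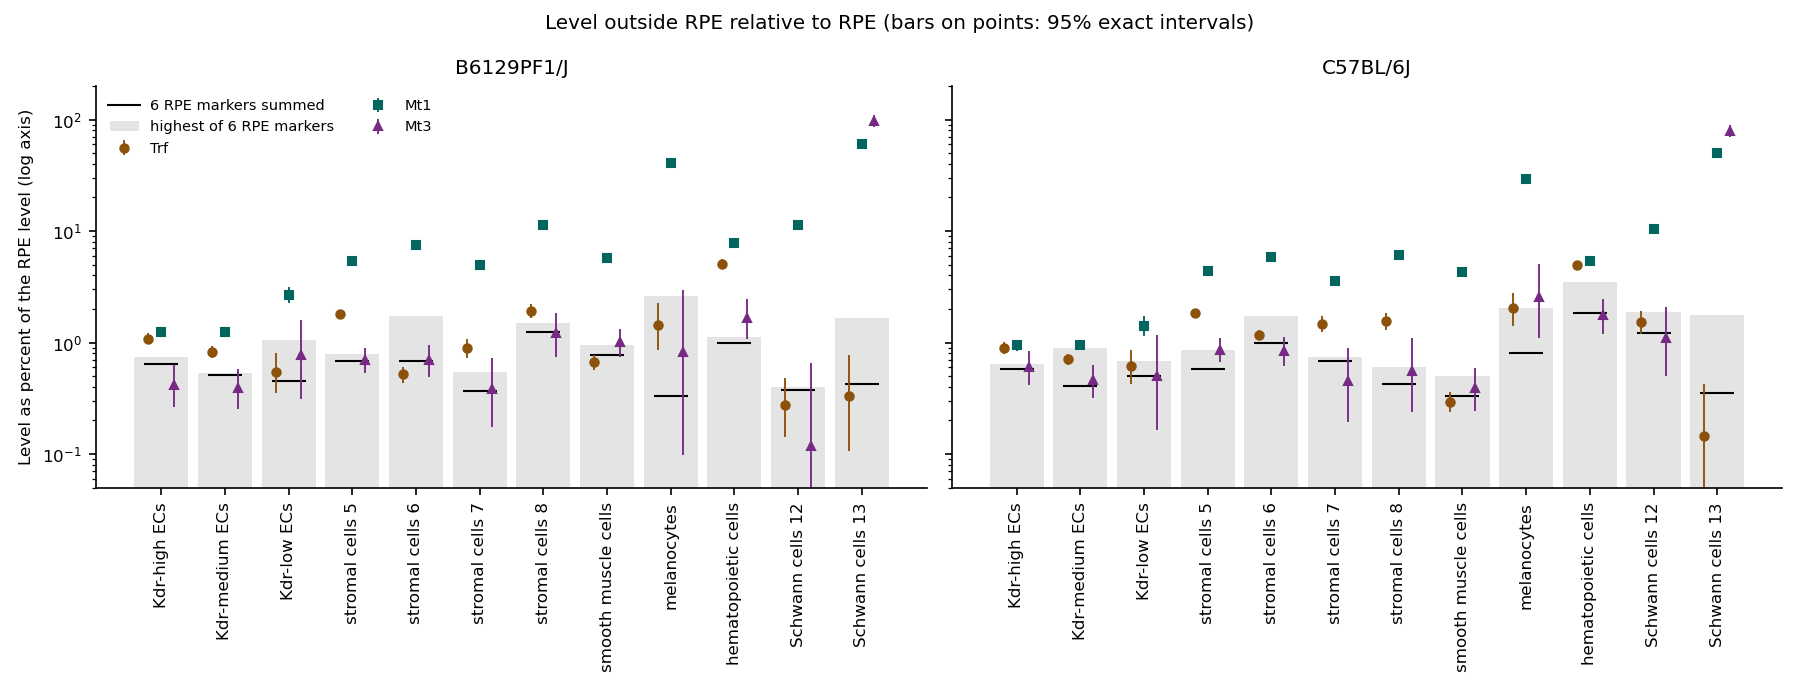
Level in each cluster outside RPE as a percent of the RPE level of the same gene and library (y axis, log scale), for *Trf* (circles), *Mt1* (squares) and *Mt3* (triangles), with 95% exact intervals, beside 6 RPE markers summed (black lines) and the highest single RPE marker (gray bars). In both libraries the lower bound of *Trf* lies above the highest marker in *Kdr*-high ECs, stromal clusters 5, 7 and 8 (7 and 8 through 1 cell each in B6129PF1/J) and hematopoietic cells. That of *Mt1* does so in every cluster but *Kdr*-medium ECs, and that of *Mt3* in Schwann cell cluster 13 alone. The markers' own intervals are not drawn.

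A few cells held much of the *Trf* signal elsewhere. In stromal cluster 6 of C57BL/6J, 7 of 603 cells had at least 20 *Trf* UMIs and together 61.2% of the *Trf* UMIs of the cluster. The summed RPE markers stood at 309 UMIs per 10,000 in these 7 cells, at 7.51 in the other cells of the cluster, and at 1366 in RPE. Without them the *Trf* level of this cluster was 0.8 in place of 2.02, and the corresponding value in B6129PF1/J was 0.634. The level of this cluster in C57BL/6J thus rested mostly on 7 cells that also carried RPE markers. In smooth muscle cells of B6129PF1/J, 1 cell held 59.6% of the *Trf* UMIs, and in Schwann cell cluster 12 of C57BL/6J 1 cell held 66.2%. Both of these cells also carried RPE markers, at 813 and 1244 UMIs per 10,000. Hematopoietic cells were less affected: without 1 and 2 such cells their *Trf* level was still 6.38 and 6.66, with RPE markers at 9.28 and 8.6. Stromal cluster 5 likewise kept 2.07 and 3.01. In stromal clusters 7 and 8 of B6129PF1/J the pattern was another: 1 cell each, with 32 and 45 *Trf* UMIs, had RPE markers at 4.26 and 4.1, no higher than in the cells around them (5.31 and 18.4). Without that cell *Trf* stood at 0.627% (0.493 to 0.786) and 1.43% (1.19 to 1.71) of its RPE level, and no longer passed the highest marker, at 0.544% and 1.52%. The limit of 20 UMIs was chosen after the levels were seen, and the part of doublets in these values was not tested.

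The other genes of transferrin uptake were sparse. *Tfrc*, the receptor, had 93 and 94 UMIs in all, and its RPE level was 0.17 (0.127 to 0.224) and 0.212 (0.149 to 0.292). The next clusters, *Kdr*-low ECs in B6129PF1/J with 0.122 (0.0333 to 0.313) and smooth muscle cells in C57BL/6J with 0.112 (0.0682 to 0.172), had intervals that overlap those of RPE. RPE is thus not set apart for *Tfrc* at this depth. *Steap3* had 146 and 73 UMIs, of which 68 and 27 lay in stromal cluster 7. Its level there was 0.801 (0.622 to 1.02) and 0.46 (0.303 to 0.669), and stromal cluster 8 followed with 0.237 (0.133 to 0.391) and 0.293 (0.16 to 0.492). RPE, by contrast, held 0 and 1 *Steap3* UMIs among 2999156 and 1748060, where a floor of 3 UMIs is 0.01 per 10,000 for the 0. The genes most like *Steap3* over the 26 points were *Tspan11* (r = 0.92), *Scara5* (r = 0.92) and *Aldh3a1* (r = 0.91), all highest in stromal cluster 7 as well. *Scara5* encodes a receptor that takes up ferritin.

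The mRNAs of ferritin and of *Tfrc* are the textbook targets of the iron regulatory proteins, which bind a hairpin called the iron-responsive element and, when iron is low, block ferritin translation and stabilize *Tfrc* mRNA. The elements of the 3 genes are shown because this control acts partly on translation, which RNA counts do not measure. A hairpin was searched as a C, 5 bases, the loop CAGTGN with any last base but G, and 5 bases that pair with the first 5 (G with U allowed), on the sense strand of GENCODE transcripts. It was present in 3 of the 10 genes and in 222 of 21877 protein-coding genes (1.01%). The loop is in capitals. *Fth1* and *Ftl1* have 1 each, in the 5′ UTR, at chr19:9982733-9982759 (plus strand) and chr7:45459780-45459806 (minus strand) of GRCm38. In *Tfrc* the search found 4, all in the 3′ UTR on the plus strand of chromosome 16, at chr16:32631220-32631246, chr16:32631599-32631625, chr16:32631664-32631690 and chr16:32631711-32631737. The pattern needs all 5 pairs and this loop, so it can miss elements that depart from it.
Fth1: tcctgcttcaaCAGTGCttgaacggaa
Ftl1: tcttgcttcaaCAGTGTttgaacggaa
Tfrc, most 5′: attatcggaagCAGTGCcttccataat
Tfrc, next: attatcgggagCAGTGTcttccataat
Tfrc, farther downstream: tatatcggagaCAGTGAtctccatatg
Tfrc, most 3′: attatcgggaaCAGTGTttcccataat
The stem on either side of the loop reads the same in both ferritin genes, and the hairpins of *Tfrc* differ from it and among themselves.

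*Fth1*, the heavy chain of ferritin, was highest in melanocytes, at 158 (150 to 166) and 135 (128 to 142). Hematopoietic cells followed with 93.2 (90.7 to 95.8) and 107 (104 to 109), then Schwann cell cluster 13 with 79.9 (74.7 to 85.5) and 76.9 (72.1 to 82.1). RPE stood near the lower end, at 35.8 (35.1 to 36.4) and 30.5 (29.7 to 31.3). The lowest cluster was *Kdr*-high ECs, with 20.2 (19.5 to 20.8) and 18 (17.4 to 18.7). Melanocytes, the other pigmented cells of this tissue, thus held 441% and 443% of the RPE level. Melanocytes were few, with 16 and 26 cells, and ranged from 86.8 to 221 over cells in B6129PF1/J and from 47.2 to 327 in C57BL/6J. The 3 genes most like *Fth1* were *Gm16152* (r = 0.84), *Sirpa* (r = 0.83) and *Igsf8* (r = 0.82), all highest in melanocytes.

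*Ftl1*, the light chain, was highest in the same 2 cell types. Its level was 46.3 (41.9 to 51) in melanocytes and 41.5 (39.8 to 43.2) in hematopoietic cells of B6129PF1/J, and 103 (96.5 to 109) and 105 (102 to 108) in those of C57BL/6J. Melanocytes and hematopoietic cells had overlapping intervals in each library. RPE had 23.7 (23.2 to 24.3) and 46.8 (45.8 to 47.8), and smooth muscle cells were lowest with 9.25 (8.8 to 9.7) and 21.5 (20.9 to 22.2). Its most similar profiles were those of *Rnaset2b* (r = 0.75), *Ctsb* (r = 0.74), a lysosomal protease, and *AI413582* (r = 0.71).

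The number of heavy-chain UMIs per light-chain UMI was far from constant over cell types. It was lowest in *Kdr*-high ECs, at 1.14 (1.09 to 1.19) and 0.482 (0.462 to 0.502), and highest in Schwann cell cluster 13, at 7.67 (6.29 to 9.42) and 3.17 (2.77 to 3.63). RPE had 1.51 (1.46 to 1.55) and 0.652 (0.63 to 0.675), which places it with the ECs and below stromal cluster 5, at 2.53 (2.46 to 2.6) and 1.29 (1.26 to 1.32). Schwann cell cluster 12 came second in both libraries, at 4.89 (4.33 to 5.52) and 2.12 (1.93 to 2.33). Within the ECs the ratio went up as *Kdr* went down, through 1.43 and 0.604 in *Kdr*-medium to 1.97 and 0.855 in *Kdr*-low ECs. The ratio was lower in C57BL/6J in all 13 clusters, while the clusters named here came in the same order in both libraries. This difference between the libraries restates that of *Ftl1*, which was 1.89 to 2.53 times higher in C57BL/6J, against 0.853 to 1.15 times for *Fth1*. *Ftl1* also has near-identical copies that were not counted, described below, so the ratios are uncertain in this respect.

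Hematopoietic cells were split by whether a cell held at least 5 UMIs of 5 macrophage markers, a limit chosen after the levels were seen. The 45 and 59 macrophage marker-rich cells had *Fth1* levels of 147 (142 to 152) and 181 (176 to 186), against 54 (51.5 to 56.6) and 47.4 (45.1 to 49.8) in the other 61 and 68 cells. *Ftl1* followed the same split, with 64.8 and 161 against 24.6 and 60.2. Macrophages recycle heme iron, and 2 genes of that route were named after their values were seen. *Slc40a1*, the iron exporter ferroportin, stood at 0.566 (0.301 to 0.968) and 1.82 (1.35 to 2.41) in the marker-rich cells and had 0 UMIs in the others. *Hmox1*, heme oxygenase, stood at 1.96 and 1.78 against 0.22 and 0.682. *Trf* was 10.2 (8.97 to 11.6) and 9.17 (8.07 to 10.4) in the marker-rich cells against 4.94 (4.2 to 5.78) and 7.89 (6.97 to 8.9) in the others. These levels include the 1 and 2 hematopoietic cells with at least 20 *Trf* UMIs, which also carried RPE markers. Those cells held 12% and 23.6% of the *Trf* UMIs of the cluster, and the split was not taken without them. The RPE marker *Ttr* went with *Trf* in B6129PF1/J, at 14.6 against 8.03, and against it in C57BL/6J, at 6.43 against 30. There were 8 and 16 cells within 2 UMIs of the limit.

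The ferroxidases lay in different cells. *Cp* was highest in stromal clusters 5 and 6, at 2.34 (2.18 to 2.52) and 2.3 (2.09 to 2.51) in B6129PF1/J and at 2.18 (2.01 to 2.36) and 2.16 (1.95 to 2.38) in C57BL/6J, and these clusters did not differ beyond counting error. RPE was lowest, with 0.05 (0.028 to 0.0825) and 0.0629 (0.0314 to 0.113), with intervals that overlap those of *Kdr*-high ECs. ECs formed a gradient, from 0.0682 (0.0363 to 0.117) and 0.131 (0.0842 to 0.196) in *Kdr*-high through 0.738 (0.633 to 0.854) and 0.902 (0.792 to 1.02) in *Kdr*-medium to 1.31 (0.951 to 1.77) and 1.66 (1.25 to 2.16) in *Kdr*-low ECs. Median depths in these 3 EC clusters ran from 4233 down to 3915 UMIs and from 3460 down to 2954 UMIs. The most similar profiles to *Cp* were *Alpl* (r = 0.85), *Lmo7* (r = 0.77) and *Plxdc1* (r = 0.74). *Heph*, the membrane-bound ferroxidase, had 196 and 137 UMIs in all, and its RPE level of 0.26 (0.206 to 0.325) and 0.24 (0.173 to 0.325) lay above that of stromal cluster 5, at 0.139 (0.101 to 0.186) and 0.116 (0.079 to 0.163), the next cluster in both libraries. Some smaller clusters had intervals that overlap those of RPE, such as stromal cluster 8, at 0.111 (0.0445 to 0.228) and 0.0838 (0.0228 to 0.214). RPE is thus not set apart from every cluster for *Heph*. Hematopoietic cells, which were rich in ferritin, held 0 *Heph* UMIs in both libraries, where a floor of 3 UMIs is 0.0548 and 0.0495 per 10,000. The profile of *Heph* was most like those of *Nqo1* (r = 0.81), *Slc16a9* (r = 0.79) and *Slc25a11* (r = 0.79).

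*Mt1*, *Mt2* and *Mt3* lie next to each other on the plus strand of chromosome 8 of GRCm38, *Mt3* at chr8:94152607-94154146, *Mt2* at chr8:94172664-94173568 and *Mt1* at chr8:94179082-94180327. *Mt1* was highest in RPE, at 159 (157 to 160) and 200 (198 to 202). Schwann cell cluster 13 followed with 95.1 (89.4 to 101) and 99.9 (94.3 to 106) and melanocytes with 64.4 (59.2 to 69.9) and 58.1 (53.6 to 62.9). All other clusters lay at or below 21, and the ECs were lowest, with 1.97 (1.78 to 2.18) and 1.89 (1.7 to 2.1) in *Kdr*-high ECs. *Mt2* had the same order at the top, with 62.6 (61.8 to 63.5) and 60.3 (59.2 to 61.5) in RPE, 55.4 (51 to 60) and 52.8 (48.8 to 57.1) in Schwann cell cluster 13, and 23.5 (20.5 to 27) and 23.1 (20.3 to 26.2) in melanocytes.

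*Mt3*, first known as a brain metallothionein, was limited to fewer cells. RPE had 27.6 (27 to 28.2) and 30.1 (29.3 to 30.9), and Schwann cell cluster 13 had 26.7 (23.7 to 30) and 23.7 (21 to 26.6). In B6129PF1/J these intervals overlap, so RPE was not set apart from cluster 13. A UMI of *Mt3* was found in 99.3% and 99.5% of RPE cells and in 96.7% and 93.5% of the 30 and 46 cells of cluster 13. All other clusters lay between 0.0327 and 0.771, melanocytes included, although these held *Mt1* and *Mt2*. This low level was 0.119% to 1.66% and 0.389% to 2.56% of the RPE level, and its lower bound passed the highest RPE marker in none of these clusters. In cluster 13 the RPE markers stood at 0.421% (0.326 to 0.536) and 0.354% (0.269 to 0.458) of their RPE level, against 96.9% and 78.8% for *Mt3*. The cells of cluster 13 had 0 UMIs of the astrocyte gene *Gfap* in both libraries. Other retinal glia markers are not given here, and a part of glial cells in this signal was not tested. Cluster 12, the other Schwann cell cluster, had *Mt3* at 0.0327 (0.000827 to 0.182) and 0.33 (0.151 to 0.627).

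The genes differed in proportion between cell types. There were 2.54 (2.49 to 2.58) and 3.32 (3.25 to 3.39) *Mt1* UMIs per *Mt2* UMI in RPE, 1.72 (1.55 to 1.9) and 1.89 (1.72 to 2.09) in Schwann cell cluster 13, and 4.69 (4.17 to 5.29) and 5.46 (4.81 to 6.22) in smooth muscle cells. The intervals of these 3 cell types do not overlap within either library. Over the 26 points, the profile most like *Mt1* was that of *Mt2* (r = 0.98), before *Myeov2* (r = 0.91) and *Ldhb* (r = 0.89). After *Mt1*, *Mt2* was most like *Myeov2* (r = 0.88) and *Morn2* (r = 0.88). *Mt3* was most like *Fdft1* (r = 0.93), *Clcn2* (r = 0.92) and *Mfsd2a* (r = 0.91), and its r with *Mt1* was 0.8.

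**Figure D3:**
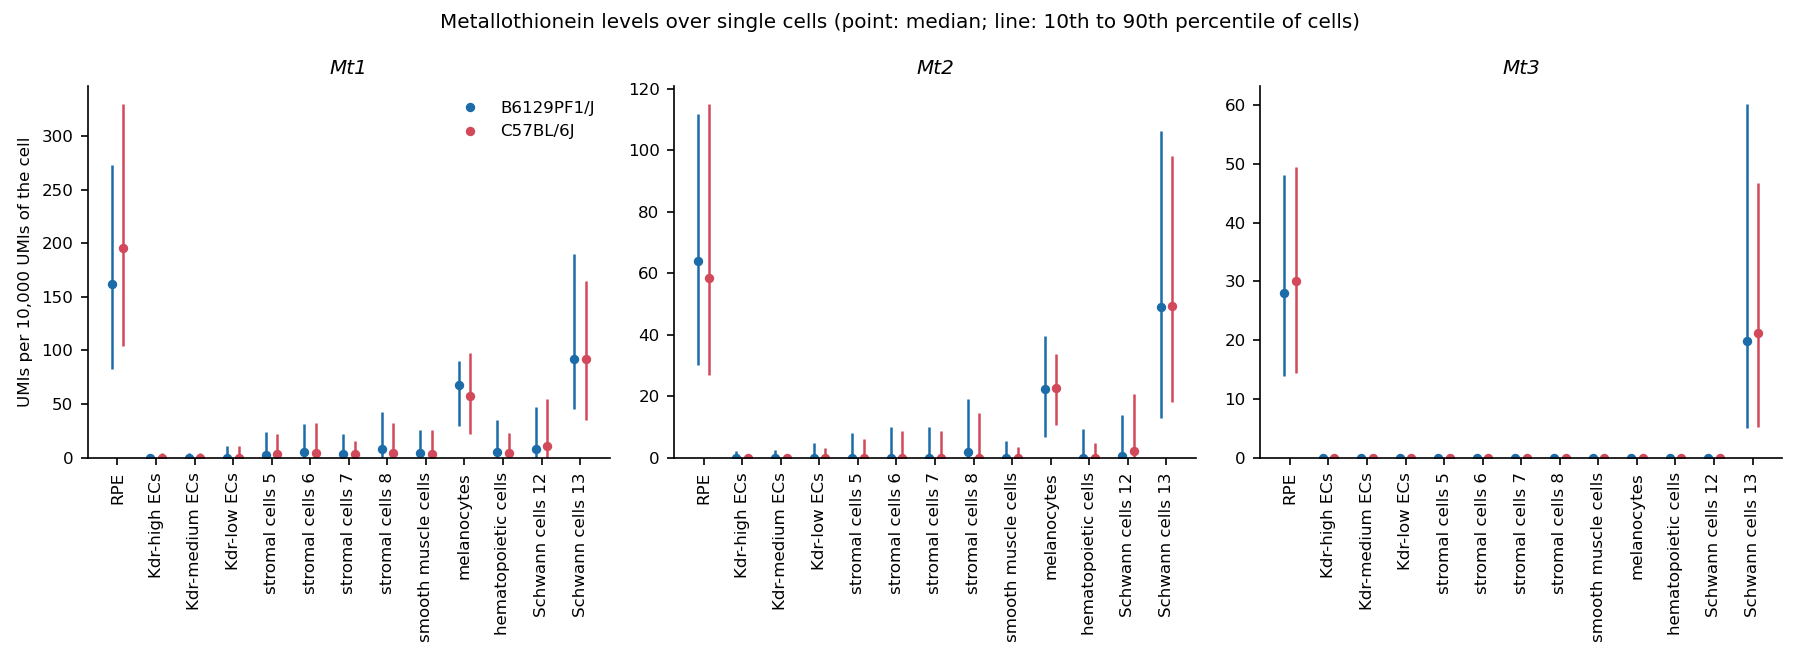
Level of *Mt1*, *Mt2* and *Mt3* in single cells (y axis, UMIs per 10,000 UMIs of the cell) by cluster (x axis), with the median as a point and the 10th to 90th percentile of cells as a line, for B6129PF1/J (blue) and C57BL/6J (red). RPE cells run from 82.9 to 273 and from 104 to 330 for *Mt1*, and the medians of *Mt3* are at 0 outside RPE and Schwann cell cluster 13.

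Cells of 1 type also varied. From the 10th to the 90th percentile of RPE cells, *Mt1* went from 82.9 to 273 in B6129PF1/J and from 104 to 330 in C57BL/6J. Across the 407 and 374 RPE cells, *Mt1* and *Mt2* went together (Spearman rho 0.81 and 0.773), and *Mt1* and *Mt3* less so (0.439 and 0.42). *Fth1* and *Ftl1* had rho 0.453 and 0.46, and *Trf* and *Mt1* -0.0217 and -0.197. Cells of a library share their preparation and differ in depth, and these values are descriptions. Tissue digestion can induce stress genes. The immediate early gene *Fos*, 1 of a list of dissociation response genes, was at 1.95 and 1.93 in RPE and at 97.2 and 112 in Schwann cell cluster 13. Levels of the other genes of that list are not given here, so *Fos* alone does not rank these clusters for stress. Over RPE cells, the sum of such dissociation response genes had rho -0.274 and -0.0173 with *Mt1*. In cluster 13 the same rho was 0.501 over 30 cells and 0.0887 over 46 cells. The part of tissue digestion in the metallothionein levels was not tested.

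Between the libraries, *Ftl1* stood apart. RPE had 23.7 UMIs per 10,000 in the B6129PF1/J library and 46.8 in the C57BL/6J library, and the ratio of C57BL/6J to B6129PF1/J was 1.97 (1.91 to 2.04). It was the 1 member of the 8 with at least 20 RPE UMIs in each library whose ratio passed 1.5 in either direction. Of all 5964 such genes 9.67% passed. The *Ftl1* ratio was between 1.89 and 2.53 in all 13 clusters, with the lowest value in stromal cluster 8 (1.77 to 2.02) and the highest in hematopoietic cells (2.41 to 2.66). For *Fth1* the ratio lay between 0.853 and 1.15 in the same 13 clusters. Among the 395 genes with at least 20 UMIs in every cluster of both libraries, *Ftl1* was the 1 gene past 1.5 in 1 direction in all 13 clusters (0.253%), a rule set after its values were seen. The median ratio over all genes with 20 UMIs lay between 0.978 and 1.12 in these clusters.

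**Figure D4:**
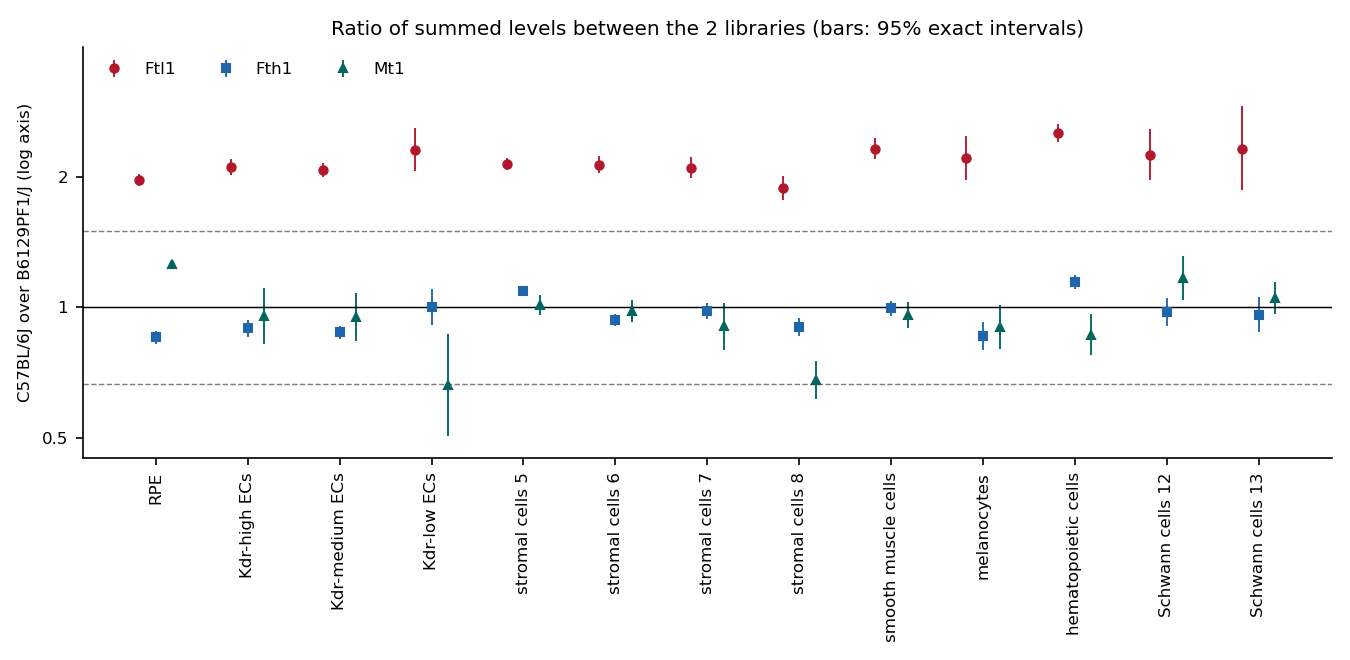
Ratio of the C57BL/6J to the B6129PF1/J level (y axis, log scale) in the 13 clusters (x axis) for *Ftl1* (red circles), *Fth1* (blue squares) and *Mt1* (green triangles), with 95% exact intervals and dashed lines at 1.5 times in either direction. *Ftl1* lies between 1.89 and 2.53 in every cluster, and *Fth1* between 0.853 and 1.15.

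Strain and library cannot be told apart here. *Ftl1* also has near-identical copies. Of the 869 windows of 100 bases in its longest coding transcript, 60.4% occur exactly in a transcript of another annotated gene, the copies *Ftl1-ps1* and *Ftl2-ps* among them, as do 38% of the windows near the 3′ end, where the reads fall. None of the copies was counted in these tables, so reads lost to or gained from them are not seen, and the levels of *Ftl1* are uncertain in this respect. For *Trf* the share was 77.3%, all with *Gm20425*, an annotated gene that overlaps it and has no row in these tables, and 5.33% near the 3′ end. For *Fth1* the share was 0.573%, and for the other 7 members it was 0%. Within 500 kb of *Ftl1* on chromosome 7, 37 other genes had at least 100 UMIs in each library, with ratios over the whole libraries from 0.557 to 1.58 (median 1.11), against 2.1 for *Ftl1*. Past 1.5 in either direction were *Bcl2l12* (1.58), *Tead2* (0.557) and *Dbp* (0.662), named here after their values were seen. For the other members the ratio in RPE was 1.22 (1.2 to 1.23) for *Trf*, 1.26 (1.24 to 1.28) for *Mt1*, 1.09 (1.05 to 1.13) for *Mt3* and 0.963 (0.94 to 0.986) for *Mt2*. Outside RPE, 5 other members passed 1.5 in at least 1 cluster. *Trf* did so in 3 of 10 clusters with 20 UMIs in each library, *Mt2* in 2 of 13, *Mt3* in 2 of 8, *Mt1* in 1 of 13 and *Steap3* in its 1 cluster. RPE is counted among the clusters of all but *Steap3*. Of all genes with 20 UMIs in each library, 8.75% passed 1.5 in either direction in *Kdr*-high, 8.88% in *Kdr*-medium and 9.13% in *Kdr*-low ECs, 8.08% in stromal cluster 6, 11.8% in stromal cluster 7, 9.06% in smooth muscle cells and 19.2% in hematopoietic cells. Ratios past 1.5 were thus common in these clusters, and the share of genes with larger ratios was not counted. *Trf* passed 1.5 in stromal cluster 6 (2.77), where the 7 cells above lay, stromal cluster 7 (2.01) and smooth muscle cells (0.543), where 1 cell of B6129PF1/J held most *Trf* UMIs. For *Steap3* in stromal cluster 7 the ratio was 0.574 (0.353 to 0.908), and for *Mt2* it was 0.624 (0.492 to 0.789) in *Kdr*-medium ECs and 0.585 (0.476 to 0.719) in hematopoietic cells. *Trf* and *Mt3* passed the limit in opposite directions in different clusters, and none of these 5 genes passed it in every cluster tested but *Steap3*, tested in 1. RPE cells had a median of 5263 UMIs in B6129PF1/J and 3407 in C57BL/6J.

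Of the 6 lists of other genes of iron and metal handling, 54 of 61 genes had a row in the single-cell tables and 36 had at least 100 UMIs in each library. By the limit of 5 UMIs per 10,000 in a cluster of both libraries, 2 are named. *Steap4*, a plasma membrane metalloreductase, stood at 7.33 (6.97 to 7.71) and 8.89 (8.47 to 9.32) in stromal cluster 6, where 79.7% and 82.1% of cells had a UMI. *Atox1*, the copper chaperone, was highest in *Kdr*-high ECs, at 13.1 (12.6 to 13.7) and 11.5 (11 to 12), and stood at 5.22 and 6.36 in RPE. None of the 7 measured genes of iron export, the 8 of storage, the 9 of heme or the 7 of mitochondrial iron reached 5.

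In whole RPE/choroid, expression was available as the authors' mean FPKM of each group, with no value per mouse, so neither an error nor a test can be given for any ratio. FPKM is per length and allows genes to be ordered, but in bulk tissue fewer cells of a type and less RNA per cell cannot be told apart. In Ihh+/+ mice *Trf* led, at 3142 FPKM, before *Fth1* (2161), *Ftl1* (1609), *Mt1* (1056), *Mt2* (471) and *Mt3* (241). *Cp* (11.3), *Steap3* (8.19), *Heph* (6.48) and *Tfrc* (5.29) were lower by over an order of magnitude. *Ihh* itself was at 1.53 FPKM in Ihh+/+ and 0.454 FPKM in the deletion, and its target *Gli1* at 9.4 and 3.15.

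After endothelial *Ihh* deletion, none of the 10 members differed by 2 times, and 1.85% of the 11411 genes at or above 1 FPKM did so in either direction. The 3 metallothioneins were all higher: *Mt2* at 696 FPKM (1.48 times), *Mt1* at 1412 (1.34 times) and *Mt3* at 306 (1.27 times). *Steap3* was at 12.6 FPKM, 1.53 times the Ihh+/+ mean, and was the 1 member past 1.5 times higher, as were 2.17% of all genes. *Heph* was at 8.22 (1.27 times), *Trf* at 3615 (1.15 times) and *Tfrc* at 5.83 (1.1 times). *Fth1* and *Ftl1* were at 2076 and 1530 FPKM, 0.96 and 0.951 times, and *Cp* was at 9.02, 0.801 times. Thus 7 of 10 ratios were above 1, as were 40.7% of all genes, and the median ratio was 1.21 for the members and 0.975 for all genes.

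Markers of several cell types differed alongside these values. All 6 RPE markers were above 1, at 1.16 to 1.34 times with a median of 1.21. All 6 photoreceptor markers were at 0.28 to 0.424 times, 5 melanocyte markers at 0.544 to 1, 6 stromal markers at 0.524 to 0.832, and 6 EC markers at 0.805 to 0.989. Of 4 mast cell markers at or above 1 FPKM, 3 were past 2 times lower, in a range of 0.287 to 0.897 times, and the erythroid gene *Alas2* was at 1.55 times. Of the 11 dissociation response genes, *Fos* was at 0.315, *Jun* at 0.3, *Fosb* at 0.116 and *Atf3* at 2.43 times. The members highest in RPE in single cells (*Trf*, *Tfrc*, *Heph* and the metallothioneins) had ratios of 1.1 to 1.48. Of these, *Mt2* (1.48) lay above the range of the RPE markers, and *Trf* (1.15) and *Tfrc* (1.1) lay below it. *Cp*, highest in stromal cells and also found in ECs, was at 0.801. This lay within the range of the stromal markers and just below that of the EC markers. *Steap3*, highest in stromal cluster 7 in single cells, had a ratio above 1 while all 6 stromal markers were below 1. The part of cell makeup in these ratios was not tested. In the 6 lists of other iron and metal genes, 41 of 51 measured genes were at or above 1 FPKM, none differed by 2 times, and their median ratio was 1.02. The 1 past 1.5 times was *Slc40a1*, named after its value was seen, at 3.22 and 1.78 FPKM (0.551 times).

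**Figure D5:**
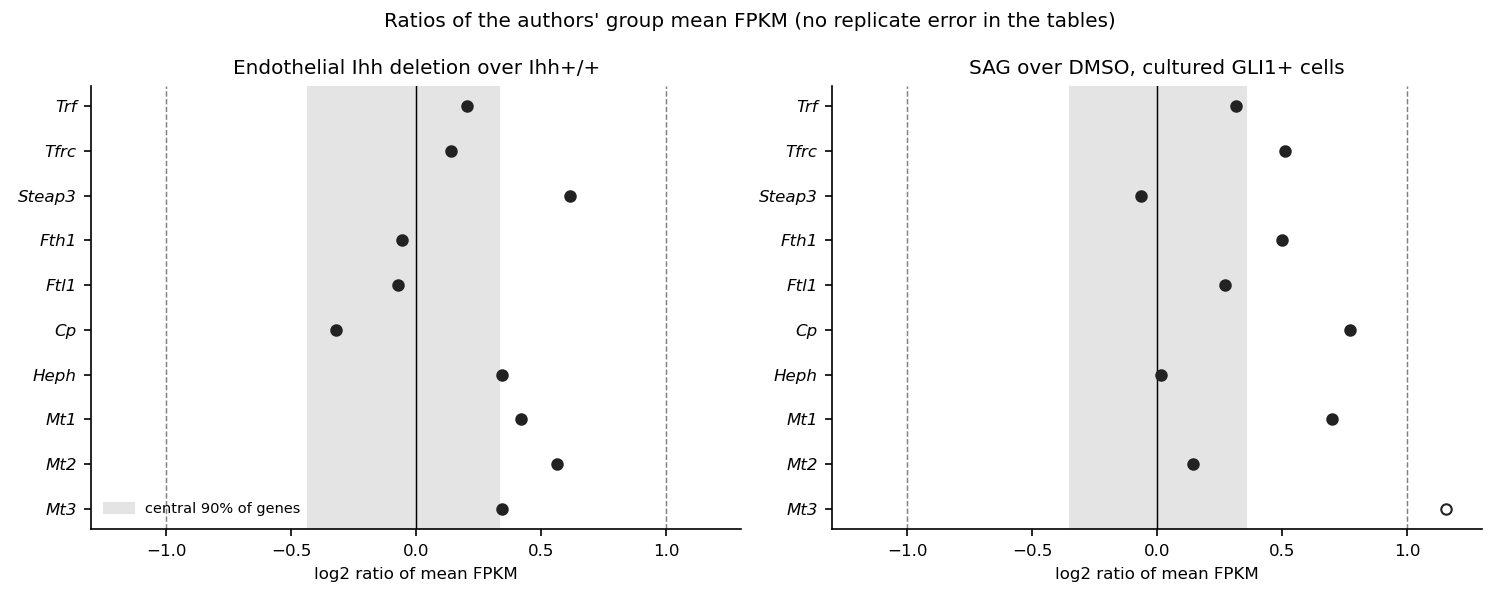
Ratio of the authors' mean FPKM (x axis, log2 scale) for the 10 genes (y axis) after endothelial *Ihh* deletion (left) and after SAG in cultured GLI1+ cells (right), with the central 90% of all genes at or above 1 FPKM in gray, dashed lines at 2 times and an open circle for *Mt3* under 1 FPKM. No filled point passes 2 times, *Steap3* and *Mt2* are highest at left, and *Cp* and *Mt1* are highest among filled points at right.

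Cultured GLI1+ cells had another profile, in a table normalized separately. With DMSO, *Ftl1* (626 FPKM) and *Fth1* (351) led, and *Steap3* came next with 93.7. *Mt1* (12.9), *Mt2* (5.95), *Trf* (2.93), *Heph* (2.55), *Cp* (1.76) and *Tfrc* (1.31) were low, and *Mt3* was at 0.166. *Steap3* thus stood above *Trf* and the metallothioneins in these cells and far below them in the tissue. The Hedgehog target *Gli1* was at 0.028 FPKM with DMSO and 3.65 with SAG.

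With SAG, none of the 9 members at or above 1 FPKM differed by 2 times, and 1.57% of the 10325 genes did in either direction. *Cp* was at 3.01 FPKM (1.71 times) and *Mt1* at 21 (1.63 times), the 2 members past 1.5 times higher, as were 1.38% of all genes. *Tfrc* was at 1.87 (1.43 times), *Fth1* at 496 (1.41 times), *Trf* at 3.65 (1.25 times) and *Ftl1* at 755 (1.21 times). *Mt2* was at 6.58 (1.1 times), *Heph* at 2.57 (1.01 times) and *Steap3* at 89.7 (0.957 times). *Mt1* and *Mt2*, which went together over cell types, thus had ratios of 1.63 and 1.1 here, with no error known for either. In all, 8 of 9 ratios were above 1, as were 67.9% of all genes, with a median of 1.25 for the members and 1.04 for all genes. *Fth1* and *Ftl1* are far above the lower limit. *Cp*, *Tfrc*, *Trf*, *Heph* and *Mt2* are at 1.31 to 6.58 FPKM, where the read depth behind a value is not known.

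Among the other iron and metal genes, 37 of 51 were at or above 1 FPKM in these cells, and *Steap4* was the 1 past 2 times, at 31.5 FPKM with DMSO and 82.2 with SAG (2.61 times). *Scara5* was at 23.7 and 41.9 FPKM (1.77 times), and the median ratio of the 37 was 1.08. *Scara5* is named as a gene whose profile was like that of *Steap3*. The stromal markers were at 0.714 to 0.992 times with SAG, and the EC, melanocyte, macrophage and photoreceptor markers were all below 1 FPKM in both groups. Of the 6 RPE markers, 3 were at or above 1 FPKM: *Ttr* at 3.33 FPKM with DMSO and 4.5 with SAG (1.35 times), *Rgr* at 2.01 and 2.54 (1.26 times) and *Rdh5* at 1.72 and 1.43 (0.833 times). RPE marker signal was thus present at the level of *Trf* (1.25 times), and its part in the ratios of *Trf* and *Mt1* was not tested.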

How the data were processed

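The deposited single-cell tables hold UMI counts, not normalized, for which the authors used Cell Ranger (mm10) and then dropped shallow cells, cells rich in mitochondrial reads and genes seen in few cells with Seurat. Clusters, cell types and the fraction of mitochondrial UMIs were taken from the deposited metadata. The deposited FPKM values are means of 3 libraries per group, from STAR 2.4.0f1 alignments and Cufflinks 2.0.2. The bulk tables also hold the fold changes and adjusted p-values of the authors, which were not used.

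Counts were summed per cluster and library and divided by all UMIs of the cluster. A ratio of 1.5 between libraries needed 20 UMIs in each, and a ratio of 2 between bulk groups needed 1 FPKM in the higher group. Genes were named as members, when a gene of the 6 lists reached 5 UMIs per 10,000 in a cluster of both libraries or 2 times in bulk, or as the 3 genes with the highest Pearson r of log2(level + 0.1). Any gene outside these rules is marked or serves as a marker. Members and lists were chosen with earlier results of these data known. Thinning drew each cell down to 1700 UMIs. Doublets were not removed. The ratio rule was tested on simulated data. Hairpins and shared windows were searched in GENCODE transcripts of GRCm38, the assembly named mm10. Python 3.11.15, numpy 2.4.6, pandas 2.3.3 and scipy 1.17.1 were used. The FPKM tables give no depth. As they hold means only, ratios were taken with no test. A table of EC genes without any member and tables of mean expression per cluster were not used. The alternatives were other limits, pseudocounts and scalings, thinning, a mean over cells, and leaving out cells or a library.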

Additional observations from a re-analysis of the deposited data

How the results depend on the processing

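The count of 6 genes highest in RPE was also 6 with the mean over cells and in either library alone, 4 in cells thinned to 1700 UMIs (without *Tfrc* and *Heph*), and 5 (without *Mt3*) when the 35 and 33 cells with UMIs of both *Xist* and *Ddx3y* or the 5% deepest cells of each cluster were left out. Leaving out 1 library gave a range of 6 to 6. The count of 1 member past 1.5 times between the strains in RPE, *Ftl1*, was 0 at a limit of 2 times. It was 1 under the other settings, where the *Ftl1* ratio ran from 1.88 to 2, and *Ftl1* passed 1.5 in all 13 clusters with cells averaged, thinned or left out. In the *Ihh* comparison the count of 0 members became 1 (*Steap3*) at a limit of 1.5 times. In the SAG comparison it became 2 (*Cp* and *Mt1*) at 1.5 times and 1 (*Mt3*) with no limit on FPKM. Pseudocounts of 1 and 0.01 FPKM and centring on the median ratio left both counts at 0. Of 260 levels, 211 stayed within their counting interval with the mean over cells, 173 after thinning and 257 without the *Xist* and *Ddx3y* cells. The 5 clusters where the lower bound of *Trf* passed the highest RPE marker became 3 without cells of at least 20 *Trf* UMIs, a setting chosen after seeing the data. RPE levels above 1 UMI per 10,000 moved by factors of 0.965 to 1.12. No paired analysis was possible because the bulk tables hold group means only, and the single-cell libraries have 1 sample per strain. For the same reason no bulk library could be left out. The depth of *Tfrc*, *Steap3* and *Heph* limits what can be said of their order.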
